A study of Mus musculus with 8 samples.

Results

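The 6 genes described here, Gzma, Gzmb, Gzmk, Gzmm, Prf1 and Nkg7, encode granzymes A, B, K and M, perforin and natural killer cell granule protein 7. They were taken by name from the 32285 genes of a single-cell count table as parts of the cytotoxic granule, at a time when earlier results of these data were known. A UMI (unique molecular identifier) stands for 1 captured mRNA molecule. The level of each gene is given as CPM, its UMIs per 1000000 UMIs of all genes, summed over the cells of 1 type in 1 graft. The study compared leukocytes that had entered grafts of 2 kinds of beta cell in the autoimmune setting of the NOD mouse. WT NIT-1 cells, an insulinoma beta-cell line from NOD mice, and NIT-1 cells with a mutation in Rnls, the gene for renalase, were injected under the skin of opposite flanks of NOD.scid mice. All hosts then received splenocytes of recently diabetic NOD mice by vein, and grafts were collected 10 or 17 days after the transfer. Live CD45+ cells were sorted, each graft was marked with 1 of 4 hashtag antibodies, and the grafts of 1 genotype and day were pooled into 1 10x Genomics 3′ library. The 4 groups were thus WT on day 10, Rnls mutant on day 10, WT on day 17 and Rnls mutant on day 17, with 4 grafts in each.

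These conditions limit what the comparisons cover. NOD.scid hosts make no T or B cells of their own but keep NK cells and myeloid cells, so the T cells came from the transferred spleens. The labels call the mutant grafts KO as well as Rnls mutant, the mutation lies in the injected beta cells, and CD45 does not mark those cells, so Rnls itself was not analysed here. Each group was 1 library, so a difference between genotypes or days cannot be told apart from a difference between libraries, and no value within a batch can be had. Nothing ties a hashtag to an animal, and p-values measure the spread between grafts of a library.

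Cytotoxic lymphocytes store perforin and granzymes in granules that fuse with the membrane facing a target cell. Perforin opens pores in the target's membrane, and granzymes, which are serine proteases, pass through them. Granzyme B cuts after aspartate and activates caspases, granzymes A and K cut after basic residues, and granzyme M cuts after methionine or leucine. Nkg7 is a granule membrane protein that takes part in degranulation. NK cells carry ready-made granules, whereas CD8 T cells load them after activation, and killing of beta cells by CD8 T cells through perforin and granzymes is a known route of damage in autoimmune diabetes.

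The table held 102058316 UMIs from 22441 cells in 12 annotated cell types, with at least 1001 UMIs in every cell. The median UMIs per cell in a graft lay between 2881.5 and 3851.5 in 3 of the groups and between 4463.0 and 7822.5 in WT grafts on day 17, which also had the fewest cells, 2690 in all. Across libraries, 84 cells shared a barcode with a cell of another library. The annotated names were checked against marker genes. NK cells carried Ncr1 at 444.3 CPM and Cd3e at 4.30, and CD8 T cells carried Cd8b1 at 529.4 and Cd3e at 1038.2. Cd3e was not typical of the T-cell markers in NK cells. All 5 of them summed there to 502.0 to 708.7 CPM in WT and 563.7 to 695.1 in mutant grafts on day 10. On day 17 the sums were 642.7 to 1468.2 and 745.8 to 1057.5. The cells annotated Stem-Progenitor carried markers of other types. Their cluster 11, of 653 cells, held T-cell genes (Cd3e 646.7) with cycling genes (Top2a 1113.3), and their cluster 24, of 177 cells, held NK genes (Ncr1 276.8, Klra4 271.0) with Top2a at 402.6 and Cd3e at 0.779. They are called here by that annotated name only.

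Positions of the 6 genes are given in GRCm38 coordinates with GENCODE gene spans. Gzma (chromosome 13, 113093825 to 113100981) and Gzmk (chromosome 13, 113171608 to 113225908) are neighbours on the minus strand. Gzmb (chromosome 14, 56258838 to 56262260, minus strand) stands beside a run of 6 further granzyme genes, Gzmc, Gzmd, Gzme, Gzmf, Gzmg and Gzmn. Prf1 (61297833 to 61304680) and Gzmm (79689020 to 79695261) are both on the plus strand of chromosome 10, and Nkg7 is on chromosome 7 (43437073 to 43438249, plus strand). RefSeq gave 7 promoter windows for the 6 genes in GRCm38.p6, each from 250 bases before to 50 bases after a transcription start, with 2 starts for Gzmm. Those of 4 genes are shown because Gzma and Gzmb fell together in T cells between the days while Gzmk and Prf1 did not pass the test there. Capitals mark the RUNX core motif ACCACA and the T-box element TCACAC, each on either strand.
Gzma, chr13:113100932-113101231, minus strand: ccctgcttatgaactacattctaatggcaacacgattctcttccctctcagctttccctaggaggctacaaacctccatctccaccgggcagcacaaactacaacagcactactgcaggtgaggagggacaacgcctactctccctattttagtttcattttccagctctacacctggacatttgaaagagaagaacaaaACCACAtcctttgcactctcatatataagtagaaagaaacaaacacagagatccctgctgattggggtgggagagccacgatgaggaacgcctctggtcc
Gzmb, chr14:56262285-56262584, minus strand: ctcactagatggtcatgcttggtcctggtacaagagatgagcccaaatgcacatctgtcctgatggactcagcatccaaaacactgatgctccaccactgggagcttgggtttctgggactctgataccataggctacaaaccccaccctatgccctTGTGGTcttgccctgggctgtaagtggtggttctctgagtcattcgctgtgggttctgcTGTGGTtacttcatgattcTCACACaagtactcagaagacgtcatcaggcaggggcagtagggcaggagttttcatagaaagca
Gzmk, chr13:113180916-113181215, minus strand: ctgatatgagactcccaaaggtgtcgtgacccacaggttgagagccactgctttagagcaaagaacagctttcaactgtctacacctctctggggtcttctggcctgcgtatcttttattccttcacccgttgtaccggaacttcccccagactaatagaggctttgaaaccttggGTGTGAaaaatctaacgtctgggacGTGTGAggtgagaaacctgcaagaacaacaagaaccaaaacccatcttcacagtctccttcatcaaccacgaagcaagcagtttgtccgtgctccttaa
Prf1, chr10:61297586-61297885, plus strand: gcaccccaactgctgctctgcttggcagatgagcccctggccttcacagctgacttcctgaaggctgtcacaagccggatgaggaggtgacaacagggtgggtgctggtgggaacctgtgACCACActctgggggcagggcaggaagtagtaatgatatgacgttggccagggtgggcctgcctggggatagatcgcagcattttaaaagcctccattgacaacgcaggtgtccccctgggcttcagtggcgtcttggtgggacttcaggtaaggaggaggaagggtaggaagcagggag
The RUNX core was found in a window of 5 of the 6 genes, against 16.8% of 32851 mouse promoter windows of the same length, and the Gzmk window lacked it. That window lay inside the GENCODE span of Gzmk, and none was taken at the span's 5′ end (113225908). Gzmm could match in either of its 2 windows, while the shares of all windows count single windows. The T-box element was found for 4 of the 6 (Gzmb, Gzmk, Gzmm and Nkg7), against 14.5% of all windows. A STAT motif, TTCCNGGAA, was found for Nkg7 (1.15% of all windows) and an AP-1 motif, TGANTCA, for Gzmb (7.81%). RUNX and T-box factors are known regulators of cytotoxic lymphocytes, and these matches describe letters only, not binding.

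Lymphocytes held most of the 6 transcripts, and the types differed in which ones they held. Counts were 124115 UMIs of Gzma in 5459 cells, 52805 of Gzmb in 5856 cells and 39019 of Nkg7 in 8964 cells. The scarcer members gave 11588 UMIs of Prf1 in 3237 cells, 7175 of Gzmk in 3166 cells and 696 of Gzmm in 544 cells, so Gzmm values rest on the fewest molecules. Cell types had been defined by the study from these same counts, and levels are therefore compared between types as a description, without a test.

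**Figure D1:**
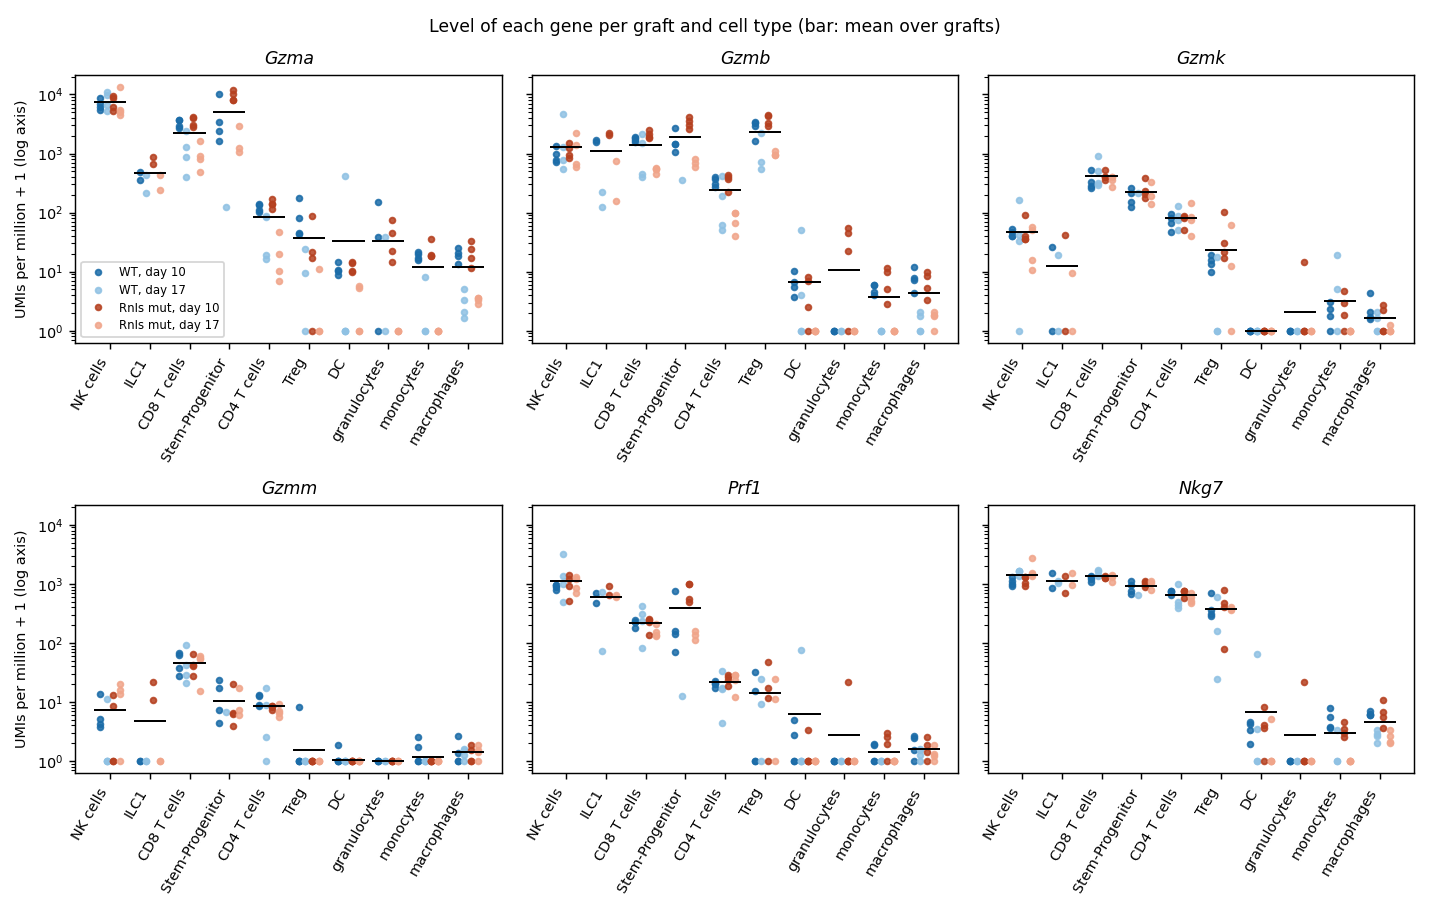
Level of each of the 6 genes in 10 cell types, as CPM plus 1 on a log axis. Each point is 1 graft in which the type had 10 cells or more, coloured by genotype and day, and each bar is the mean over grafts. As means over grafts of both days, Gzma and Prf1 were highest in NK cells, Gzmb in regulatory T cells, Gzmk and Gzmm in CD8 T cells, and Nkg7 was nearly level between NK and CD8 T cells.

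Gzma, whose product cuts after basic residues, had its highest mean over grafts of both days in NK cells, at 7362.1 ± 2574.5 CPM (SD, n = 16 grafts). It reached 5102.2 ± 4242.8 in the cells annotated Stem-Progenitor (n = 12) and 2240.5 ± 1326.4 in CD8 T cells (n = 16). NK cells were above the Stem-Progenitor cells in 9 of the 12 grafts that had both, and the latter were above CD8 T cells in 9 of 12, so neither step was larger than the spread in every graft. The Stem-Progenitor cells had 4 grafts in each group of day 10, but 1 WT and 3 mutant grafts on day 17. In mutant grafts of day 10 both types overlapped, with NK cells from 5175.8 to 9299.2 and Stem-Progenitor cells up to 11890.3. ILC1, tissue-resident innate relatives of NK cells, held 461.9 ± 217.5 (n = 8), below CD8 T cells in 8 of 8 grafts and above CD4 T cells (83.2 ± 55.9, n = 16) in 8 of 8. Within the Stem-Progenitor cells the transcript was uneven. Cluster 24, with NK genes, held Gzma at 20231.6 CPM and 83.4% of that type's Gzma UMIs, against 1479.5 in cluster 11. Among CD8 T cells, the 387 cells of cluster 16 held 11359.4 and 49.4% of the type's Gzma UMIs, and the 1780 cells of cluster 3 held 1155.2.

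Gzmb, which starts the caspase cascade in a target, had a different order. On day 10, regulatory T cells, the Foxp3+ CD4 cells known for suppression, held the highest mean level, 3269.9 ± 908.5 CPM (SD, n = 8 grafts). They were above the cells annotated Stem-Progenitor (2528.6 ± 1114.1, n = 8) in 6 of 8 grafts and above CD8 T cells (1929.2 ± 283.2, n = 8) in 7 of 8. NK cells, at 1045.4 ± 295.3 on that day (n = 8), lay below CD8 T cells in 8 of 8 grafts and below ILC1 (1881.9 ± 321.7, n = 4) in 4 of 4. On day 17 the order differed. NK cells then had the highest mean, 1518.6 ± 1386.0 (n = 8), above CD8 T cells (830.7 ± 648.8, n = 8) in 7 of 8 grafts, above ILC1 (314.5 ± 294.0, n = 4) in 4 of 4 and above regulatory T cells (1084.7 ± 588.7, n = 6) in 4 of 6, the last within the spread. Over both days the means were 2333.4 ± 1355.4 in regulatory T cells (n = 14), 1887.6 ± 1302.2 in the Stem-Progenitor cells (n = 12), 1380.0 ± 745.4 in CD8 T cells (n = 16), 1282.0 ± 998.4 in NK cells (n = 16) and 1098.2 ± 885.0 in ILC1 (n = 8). CD4 T cells held 236.5 ± 150.2 (n = 16) and lay above granulocytes (9.85) in 12 of 12 grafts. Cluster 24 again held the highest level of a cluster within the T and Stem-Progenitor cells, 5328.2, beside 3570.0 in CD8 cluster 16.

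Regulatory T cells had Gzmb with little of the rest of the granule set. Their levels were 36.0 ± 48.6 for Gzma, 13.1 ± 14.1 for Prf1, 22.3 ± 27.4 for Gzmk and 0.519 for Gzmm (n = 14 grafts), and 379.0 ± 215.4 for Nkg7. After each cell was thinned to 1000 UMIs, 62.0% of 505 regulatory T cells had a Gzmb UMI (exact 95% interval 57.6 to 66.2; 73.1% unthinned). Among the 313 regulatory T cells with Gzmb, 2.56% had Gzma, 2.24% had Prf1 and 24.6% had Nkg7. The summed level of 7 NK marker genes in regulatory T cells stayed between 0 and 50.9 CPM over grafts, with Ncr1 and Klrb1c at 0 in every group. The 2 CD8 T-cell marker genes summed there to 7.26 to 116.2 in WT and 11.2 to 111.9 in mutant grafts on day 10. On day 17 they ranged from 0 to 58.4 and from 0 to 10.2, with a median of 0 in both. The part of RNA from CD8 T cells in these Gzmb values was not tested.

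Gzmk and Gzmm were highest in CD8 T cells. Gzmk was at 409.0 ± 159.0 CPM there (n = 16), above the cells annotated Stem-Progenitor (219.0 ± 78.1) in 12 of 12 grafts. CD4 T cells followed at 79.1 ± 28.1 and were above NK cells (46.3 ± 37.3) in 13 of 16 grafts. NK cells, the type with the highest mean of Gzma over both days, thus lay below both T-cell types for Gzmk, the neighbour of Gzma on chromosome 13. Gzmm was at 45.1 ± 20.2 in CD8 T cells, again above the Stem-Progenitor cells (9.55 ± 6.89) in 12 of 12 grafts, and the steps from there to CD4 T cells (7.39 ± 3.88) and NK cells (6.19 ± 6.48) were held by 6 of 12 and 9 of 16 grafts.

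Prf1, the pore former, was at 1105.6 ± 617.5 in NK cells and 599.2 ± 246.2 in ILC1, and NK cells were higher in 7 of 8 grafts. CD8 T cells held 212.8 ± 81.7, above CD4 T cells (20.5 ± 7.24) in 16 of 16 grafts. The Stem-Progenitor cells held 381.5 ± 365.5, and 92.7% of their Prf1 UMIs were in cluster 24. Nkg7 had the broadest distribution, with 1393.7 ± 437.4 in NK cells, 1335.3 ± 168.8 in CD8 T cells and 1136.9 ± 314.0 in ILC1. CD8 T cells were above NK cells for Nkg7 in 7 of 8 grafts on day 10 (1261.4 ± 88.2 and 1108.3 ± 166.1), and NK cells were above CD8 T cells in 6 of 8 on day 17 (1679.0 ± 443.0 and 1409.3 ± 201.9). CD4 T cells held 645.6 ± 157.5, above regulatory T cells in 13 of 14 grafts, and regulatory T cells were above dendritic cells (5.81) in 14 of 14.

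Macrophages, which should lack these genes, set the level of stray RNA. They held 10.8 CPM of Gzma, 3.43 of Gzmb, 3.56 of Nkg7, 0.667 of Gzmk, 0.585 of Prf1 and 0.418 of Gzmm as means over 16 grafts. In cells thinned to 1000 UMIs, 0.864% of macrophages had a Gzma UMI (3.96% unthinned, median 4719.0 UMIs per cell), against 87.9% of NK cells (93.4% unthinned, median 2411.0) and 55.1% of CD8 T cells (67.7% unthinned, median 2555.0). For Prf1 the thinned shares were 51.2% of NK cells, 39.8% of ILC1, 17.7% of CD8 T cells, 1.89% of CD4 T cells and 0.0975% of macrophages. For Gzmb they were 56.0% of CD8 T cells, 38.8% of NK cells, 33.0% of ILC1, 13.5% of CD4 T cells and 0.39% of macrophages.

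The granule genes met unevenly within single cells. Of 1901 thinned CD8 T cells with Gzma, 67.2% also had Gzmb, against 42.2% of the 1548 without Gzma. The 987 CD8 T cells with Gzmk had Gzmb at nearly the same share as the 2462 without, 56.1% and 55.9%. Of 1331 NK cells with Gzma, 54.5% had Prf1 and 41.7% had Gzmb, against 26.6% and 17.9% of the 184 without it. In CD4 T cells, 32.2% of the 307 with Gzma had Gzmb, against 12.2% of 4569. Cells of 1 graft are not replicates and clusters of high and low level lie behind these shares, so they are given without a test.

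The comparison of day 17 with day 10 asks how the granule transcripts of a given cell type changed as the infiltrate aged. In CD8 T cells Gzma and Gzmb were lower on day 17 in both genotypes, and the other 4 members did not pass the test. In WT grafts 1 to 4, CD8 Gzma was 3733.7, 2669.7, 3678.1 and 2870.6 CPM on day 10 and 858.1, 1275.6, 392.5 and 2396.9 on day 17. In Rnls mutant grafts it was 3999.5, 2795.1, 3064.7 and 4229.4 on day 10 and 924.0, 821.1, 477.6 and 1660.6 on day 17. In both genotypes every graft of day 17 lay below every graft of day 10. Gzma was 2.97-fold lower in WT grafts (log2 change −1.57 ± 0.29 SE, adjusted p = 0.000505, edgeR's quasi-likelihood test, Benjamini-Hochberg adjusted over all genes) and 4.08-fold lower in mutant grafts (−2.03 ± 0.29, adjusted p = 2.08e-05). Gzma and Gzmb made 2 of 6 members called lower in each genotype, against 6.32% of the 6379 genes tested in CD8 T cells of WT grafts and 4.56% in those of mutant grafts.

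CD8 Gzmb in WT grafts was 1707.3, 1853.7, 1929.3 and 1588.5 on day 10 and 455.4, 405.2, 2168.9 and 1508.1 on day 17. Graft 3 of day 17 was the highest of the 8, so the days overlapped. In mutant grafts it was 1818.5, 1893.5, 2135.7 and 2507.2 on day 10 and 564.2, 543.8, 457.8 and 542.5 on day 17, without overlap. The change was 1.91-fold lower in WT grafts (log2 −0.93 ± 0.28, adjusted p = 0.0281, edgeR's quasi-likelihood test) and 4.19-fold lower in mutant grafts (−2.07 ± 0.29, adjusted p = 1.26e-05). Without graft 3 of day 17 the WT change was −1.50 (adjusted p = 6.77e-05), 4 of the 16 settings that left out 1 graft lost the WT call (day 10 graft 2 or 3, day 17 graft 1 or 2), over a range of −1.50 to −0.64, and DESeq2 called 1 member in WT grafts where edgeR called 2. The thinned share of CD8 T cells with a Gzmb UMI was 60.6% and 63.0% on day 10 (WT, mutant) and 31.7% and 25.7% on day 17. The share with Gzma went from 60.8% and 61.7% to 27.5% and 23.5%.

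**Figure D2:**
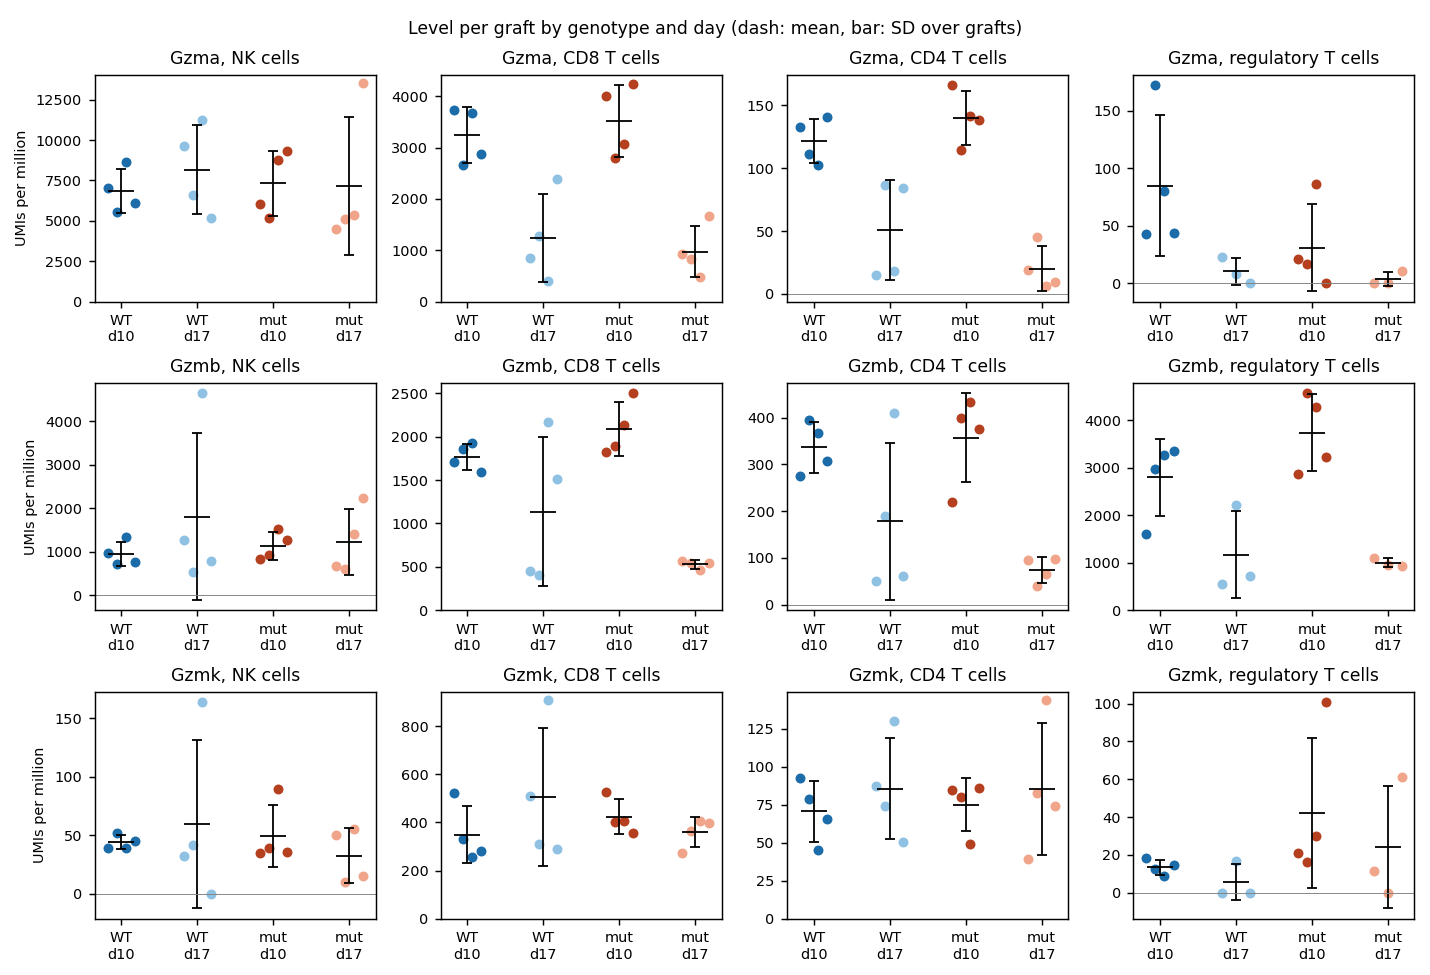
CPM of Gzma, Gzmb and Gzmk in NK, CD8 T, CD4 T and regulatory T cells by genotype and day. Points are grafts in which the type had 10 cells or more, the dash is their mean and the bar their SD. Gzma and Gzmb of CD8 and CD4 T cells and Gzmb of regulatory T cells lie lower on day 17, apart from WT graft 3 for Gzmb (2168.9 in CD8 T cells). Gzma of regulatory T cells, at most 172.6 CPM, overlaps between days in mutant grafts, and Gzmk of CD8 and CD4 T cells and all 3 genes of NK cells overlap between days.

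Few CD8 T cells underlie the WT values of day 17, with 81, 45, 18 and 23 cells in grafts 1 to 4. The share of CD8 T cells in cluster 16, the cluster high in Gzma, was 12% and 13.7% on day 10 and 6.59% and 2.2% on day 17 (WT, mutant). Cluster 3, the largest, was then taken alone, a choice made after its values were seen. Gzma there was 1328.0 ± 208.0 and 1362.2 ± 263.3 on day 10 and 612.5 ± 392.1 and 484.8 ± 215.3 on day 17 (SD over grafts). Its log2 change was −1.38 ± 0.26 in WT (adjusted p = 0.000923) and −1.65 ± 0.25 in mutant grafts (adjusted p = 2.87e-05), and that of Gzmb was −1.24 ± 0.27 (0.00354) and −1.71 ± 0.26 (2.89e-05), all by edgeR's quasi-likelihood test. With clusters 16 and 20 left out instead, Gzma kept its call in both genotypes and Gzmb lost it in WT grafts (−0.78 ± 0.28, adjusted p = 0.0729).

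The other members of the set did not follow Gzma and Gzmb in CD8 T cells. Gzmk was 520.8, 332.4, 257.8 and 283.1 in WT grafts on day 10 and 511.1, 310.2, 908.9 and 289.6 on day 17, with overlap. Its log2 change was 0.34 ± 0.23 in WT (adjusted p = 0.384) and −0.34 ± 0.23 in mutant grafts (adjusted p = 0.405) by edgeR's quasi-likelihood test. The thinned share of CD8 T cells with a Gzmk UMI ranged only from 26.7% to 30.5% over the 4 groups. Nkg7 changed by 0.14 ± 0.11 (adjusted p = 0.425) and −0.09 ± 0.11 (0.647), and Prf1 by −0.06 ± 0.26 (0.925) and −0.63 ± 0.26 (0.133). Gzmm changed by −0.19 ± 0.44 (0.838) and −0.09 ± 0.41 (0.93), with the widest SEs of the set. The median log2 change of the 6 was −0.12 in WT and −0.48 in mutant grafts, beside 0.02 and 0.01 over all genes tested. In mutant grafts, Prf1 (−0.73) and Gzmk (−0.44) passed once the filter on low counts was dropped, and Prf1 also without mutant graft 1 of day 10 (−0.81) or WT graft 2 of day 17 (−0.65).

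CD4 T cells showed the same pair at a lower level. Gzma was 132.4, 111.2, 102.6 and 140.4 CPM in WT grafts on day 10 and 15.3, 86.6, 18 and 84.3 on day 17. In mutant grafts it went from 166.2, 114.3, 141.5 and 137.9 to 19.3, 45.6, 6.0 and 9.30. The days did not overlap in either genotype. The log2 change was −1.89 ± 0.38 (3.70-fold lower, adjusted p = 0.00111) and −2.80 ± 0.40 (6.97-fold lower, adjusted p = 3.44e-05). Macrophages, taken as the level of stray RNA, held Gzma at 18.5 and 20.5 on day 10 and 2.04 and 2.34 on day 17 (WT, mutant), and the part of stray RNA in the CD4 values was not tested.

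CD4 Gzmb was 275.4, 395.2, 365.9 and 308.0 in WT grafts on day 10 and 50.6, 189.7, 410.3 and 60.7 on day 17. Graft 3 was again the highest and made the days overlap. In mutant grafts it was 220.5, 399.6, 434.1 and 374.6, and then 95.6, 39.4, 66.1 and 97.6, without overlap. The WT change was −1.14 ± 0.39 (2.21-fold lower, adjusted p = 0.0418, edgeR's quasi-likelihood test), the call was lost in 8 of 16 settings that left out 1 graft, over a range of −2.23 to −0.71, and DESeq2 called no member in WT grafts. The mutant change was −2.36 ± 0.43 (5.12-fold lower, adjusted p = 0.000475) and kept its call in all 16. In each genotype 2 of 5 members tested were called lower, against 10.1% of 7858 genes in WT and 10.4% in mutant grafts, so a call there is common among all genes. Gzmk changed by 0.20 and 0.03, Prf1 by −0.28 and −0.40 and Nkg7 by −0.48 ± 0.19 (adjusted p = 0.0786) and −0.42 ± 0.19 (0.117). Without WT graft 3 of day 17, WT Gzmb changed by −2.23 (adjusted p = 2.64e-05) and Nkg7 passed in WT (−0.86) and mutant grafts (−0.43). Nkg7 also passed in both with no filter on low counts (−0.57 and −0.51).

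The CD4 T cells of the days came from different clusters. Cluster 8 held 4.54% and 5.19% of CD4 T cells on day 10 and 74.5% and 69.8% on day 17 (WT, mutant), and cluster 0 went from 61.8% and 54.3% to 8.16% and 6.39%. In cluster 8 alone, chosen after its values were seen, neither gene passed in WT grafts (Gzma −1.36, adjusted p = 0.715; Gzmb −1.60, adjusted p = 0.176; edgeR's quasi-likelihood test). In mutant grafts both did (Gzma −4.26, adjusted p = 0.0129, and Gzmb −2.67, adjusted p = 0.00096). The WT side of day 10 in cluster 8 was 63 cells in 3 grafts. In cluster 7 alone, also chosen afterwards, Gzma changed by −2.40 and Gzmb by −1.95 in mutant grafts. The WT changes there were −8.96 and −2.32, with only 1 graft of 45 cells on day 17.

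Gzmb of regulatory T cells fell in the same direction. It was 1598.7, 2971.5, 3261.4 and 3361.4 in WT grafts on day 10 and 554.5, 2219.2 and 729.1 in grafts 1, 3 and 4 on day 17, since graft 2 had only 6 regulatory T cells and was dropped from the fit. In mutant grafts it was 2878.0, 4572.4, 4287.3 and 3228.3 on day 10 and 1109.1, 960.3 and 935.9 in grafts 1 to 3 on day 17, with graft 4 (8 cells) dropped. WT days overlapped through graft 3 and mutant days did not. The log2 change was −1.19 ± 0.29 (2.28-fold lower, adjusted p = 0.0105) and −1.94 ± 0.30 (3.85-fold lower, adjusted p = 0.000117) by edgeR's quasi-likelihood test. With a minimum of 20 cells per graft the WT change was −0.43 and lost its call, and without WT graft 3 it was −2.19 (adjusted p = 1.06e-05). Gzmb was 1 of 2 members tested there, against 4.55% and 3.43% of 2331 genes called lower. The thinned share of regulatory T cells with Gzmb was 61.1% and 80.2% on day 10 and 44.6% and 43.1% on day 17. Nkg7, the other member tested, changed by −0.43 (adjusted p = 0.646) and −0.36 (0.73).

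ILC1 reached 10 cells in 2 grafts of each group. Their Gzmb was 1687.4 and 1547.2 in WT and 2248.0 and 2044.8 in mutant grafts on day 10, and 226.2 and 125.5 and then 155.4 and 750.9 on day 17. No fitted graft of day 17 reached a fitted one of day 10. In the grafts left out for too few cells, WT Gzmb was 1952.8 and 1172.2 on day 10 and 291.8 and 289.6 on day 17. Mutant Gzmb there was 0 (1 cell) and 1368.2, then 1002.5 and 1306.3, so those days overlapped. The log2 change was −3.29 ± 0.60 (9.78-fold lower, adjusted p = 0.0417) and −2.74 ± 0.58 (6.68-fold lower, adjusted p = 0.0215), 1 of 4 members called lower in each genotype against 0.226% and 4.69% of 1770 genes, by edgeR's quasi-likelihood test. Each call was lost in 2 of the 8 settings that left out 1 graft (WT graft 1 or 2 of day 10, and mutant graft 1 of day 10 or graft 2 of day 17), and the mutant call also with a minimum of 1 cell per graft (−1.28). The changes ranged from −3.83 to −3.01 in WT and from −4.00 to −1.79 in mutant grafts over the settings that left out 1 graft, the smallest without mutant graft 2 of day 17. Gzma changed by −0.49 (adjusted p = 0.647) and −1.58 ± 0.47 (0.0553), Prf1 by −0.69 and −0.52, and Nkg7 by −0.29 and 0.06. Mutant Gzma passed without likely doublets (−1.82). It changed by −1.88 without mutant graft 3 of day 10, and by −1.60 or −1.61 without WT graft 1 or 2 of day 17. WT Prf1 changed by −3.21 without WT graft 1 of day 17, which left 1 WT graft of that day, with 14 cells and 4 Prf1 UMIs. The WT grafts of day 17 with too few cells for the fit held Prf1 at 1212.1 and 724.1.

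NK cells differed from the T cells in this comparison. Their Gzma was 7027.7, 5519.2, 8647.5 and 6107.8 CPM in WT grafts on day 10 and 9637.1, 6592.5, 11225.6 and 5196.1 on day 17. In mutant grafts it was 6034.9, 5175.8, 8774.7 and 9299.2, and then 4519.0, 5138.4, 5370.2 and 13528.0. Both genotypes overlapped between days. The log2 change was 0.19 ± 0.28 (adjusted p = 0.724) and −0.08 ± 0.28 (0.94), and 0 of 4 members was called lower in either genotype, against 4.87% and 1.2% of 3263 genes, by edgeR's quasi-likelihood test and by DESeq2.

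NK Gzmb was 974.4, 722.3, 1332.9 and 774.8 in WT grafts on day 10 and 1272.1, 539.0, 4647.1 and 781.6 on day 17. Graft 3 of day 17 stood far above the others of its day, which lay at or below 1272.1. The WT log2 change was 0.89 ± 0.46 with it (adjusted p = 0.243) and −0.27 without it (adjusted p = 0.667). Prf1 behaved alike, with 1349.2, 501.0, 3193.1 and 984.2 on day 17, a change of 0.70 ± 0.36 with graft 3 (adjusted p = 0.239) and −0.06 without it (0.928), all by edgeR's quasi-likelihood test. WT Gzmb (0.74) and Prf1 (0.55) passed as higher once the filter on low counts was dropped, and Prf1 also without WT graft 2 of day 17 (1.03). WT grafts of day 17 held 41, 79, 25 and 13 NK cells.

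Nkg7 was the 1 member at an unadjusted p of at most 0.05 in NK cells, where 23.6% of all genes tested reached that mark in WT and 16.5% in mutant grafts. It was 1002.5, 929.6, 1281.0 and 1113.7 in WT grafts on day 10 and 1638.3, 1679.2, 1382.7 and 1664.5 on day 17. In mutant grafts it was 906.9, 1032.6, 1289.2 and 1311.0, and then 1456.5, 1347.2, 1534.3 and 2729.5. Every graft of day 17 lay above every graft of day 10 within its genotype, by log2 0.47 ± 0.18 (1.39-fold, adjusted p = 0.104) and 0.59 ± 0.19 (1.51-fold, adjusted p = 0.0943), neither of which passed edgeR's quasi-likelihood test after adjustment. The WT change passed in 1 of the settings that left out 1 graft, without mutant graft 4 of day 17 (0.47). Gzmk and Gzmm of NK cells were too low for the fit and gave exact permutation p-values between 0.229 and 0.943, where 4 against 4 grafts cannot go below 0.0286.

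**Figure D3:**
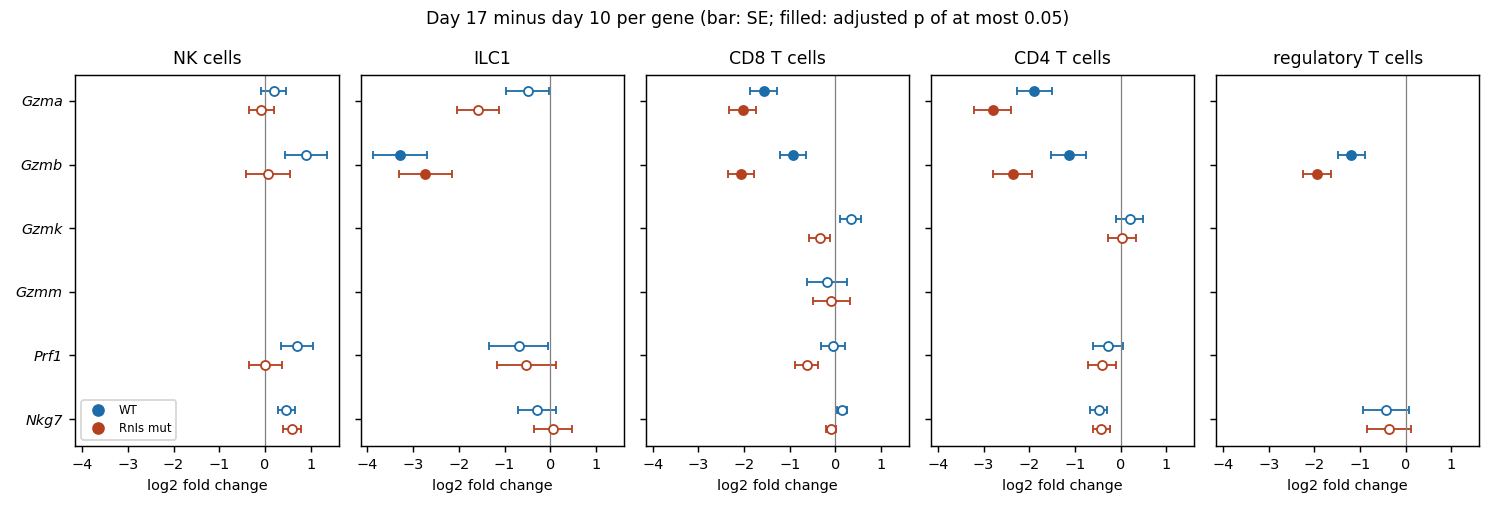
Log2 change from day 10 to day 17 of each gene in 5 cell types, with its SE, for WT and Rnls mutant grafts. Filled points have an adjusted p of at most 0.05 and genes too low for the fit have no point. Filled points occur only for Gzma and Gzmb, all below 0, and none lies in the NK panel.

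Whether a T-cell change differed from the NK change in the same grafts was tested on the log2 ratio of a type's level to the NK level, by an exact permutation of the day within genotype. This test was chosen after the data had been seen, and 14 ratios were tested. For CD8 T cells the Gzma ratio changed by −1.85 on the log2 scale from day 10 to day 17 (4900 assignments, exact adjusted p = 0.00343), and 7 of 8 grafts of day 17 lay below all grafts of day 10. The Gzmb ratio changed by −1.68 (exact adjusted p = 0.00343) and the Nkg7 ratio by −0.43 (exact adjusted p = 0.0131). For CD4 T cells the changes were −2.39 for Gzma (0.00343), −2.04 for Gzmb (0.00343) and −0.96 for Nkg7 (0.00381), all exact adjusted p-values. For Gzmb of regulatory T cells the change was −1.89 (1225 assignments, exact adjusted p = 0.00343). The CD8 Prf1 ratio changed by −0.46 with an exact adjusted p of 0.05, and 12 of the 16 settings that left out 1 graft put it above that threshold. The ILC1 Gzmb ratio changed by −2.75, with an exact adjusted p of 0.0864 over only 36 assignments.

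Markers of other cell types were followed beside these changes. The summed level of 5 macrophage genes in CD8 T cells ranged over grafts from 43.3 to 63.2 CPM in WT and 22.8 to 31.1 in mutant grafts on day 10, and from 51.6 to 105.3 and 225.0 to 369.0 on day 17. In NK cells it ranged from 54.9 to 74.7, 17.8 to 38.7, 28.9 to 122.1 and 154.0 to 273.9 in the same order. In both cell types it was highest in mutant grafts of day 17. The 5 T-cell genes in NK cells had medians over grafts of 545.2 and 587.5 on day 10 (WT, mutant). On day 17 these medians were 853.4 and 834.2, and the days overlapped in WT but not in mutant grafts. The 7 NK genes summed to between 683.3 and 888.4 in CD8 T cells on day 10 and between 423.4 and 938.6 on day 17. The part of any of these lists in the granzyme changes was not tested.

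In the sum of all CD45+ cells, the 6 transcripts were lower on day 17, where fewer cells of a type and less RNA per cell cannot be told apart. Gzmb, as an example, was 612.8 ± 144.9 CPM in WT and 922.3 ± 219.7 in mutant grafts on day 10 and 127.6 ± 19.5 and 104.3 ± 32.2 on day 17 (SD, n = 4 each), without overlap of the days. Its log2 change was −2.36 ± 0.24 (adjusted p = 7.36e-06) and −3.18 ± 0.24 (adjusted p = 5.23e-07). All 6 members were called lower in WT grafts and 5 of 6 in mutant grafts (Gzmm −1.27, adjusted p = 0.0648), by edgeR's quasi-likelihood test, against 17.5% and 22.4% of 12560 genes. Gzma changed by −1.75 ± 0.55 in WT grafts (adjusted p = 0.0202). Without graft 4 of day 17, only 2 of the 6 were called in WT grafts. NK, CD8 T and Stem-Progenitor cells made up between 4.41% and 35.4% of the cells of a WT graft on day 17, and the share of these 3 types was 36.0% and 32.4% on day 10 and 12.9% and 11.8% on day 17 as medians over grafts (WT, mutant), and macrophages went from 17.0% and 15.7% of cells to 53.9% and 61.8%.

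The cells that held the transcripts also changed. Of Gzma UMIs in WT grafts, the Stem-Progenitor cells held 42.6% on day 10 and 1.1% on day 17, while NK cells held 28.2% and then 82.5%. In mutant grafts the Stem-Progenitor cells held 63.1% and then 18.3%, and NK cells 13.4% and then 59.4%. Those Stem-Progenitor cells were 5.53% and 4.96% of all cells on day 10 and 0.706% and 1.09% on day 17. Prf1 moved likewise, with NK cells holding 41.9% and 20.2% of its UMIs on day 10 and 69.8% and 53.2% on day 17. Gzmk and Gzmm stayed with CD8 T cells, which held between 50.8% and 53.7% of Gzmk UMIs and between 57.7% and 66.8% of Gzmm UMIs in every group. Nkg7 was shared, with CD4 T cells holding between 23.7% and 33.7% and CD8 T cells between 26.5% and 32.8%.

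**Figure D4:**
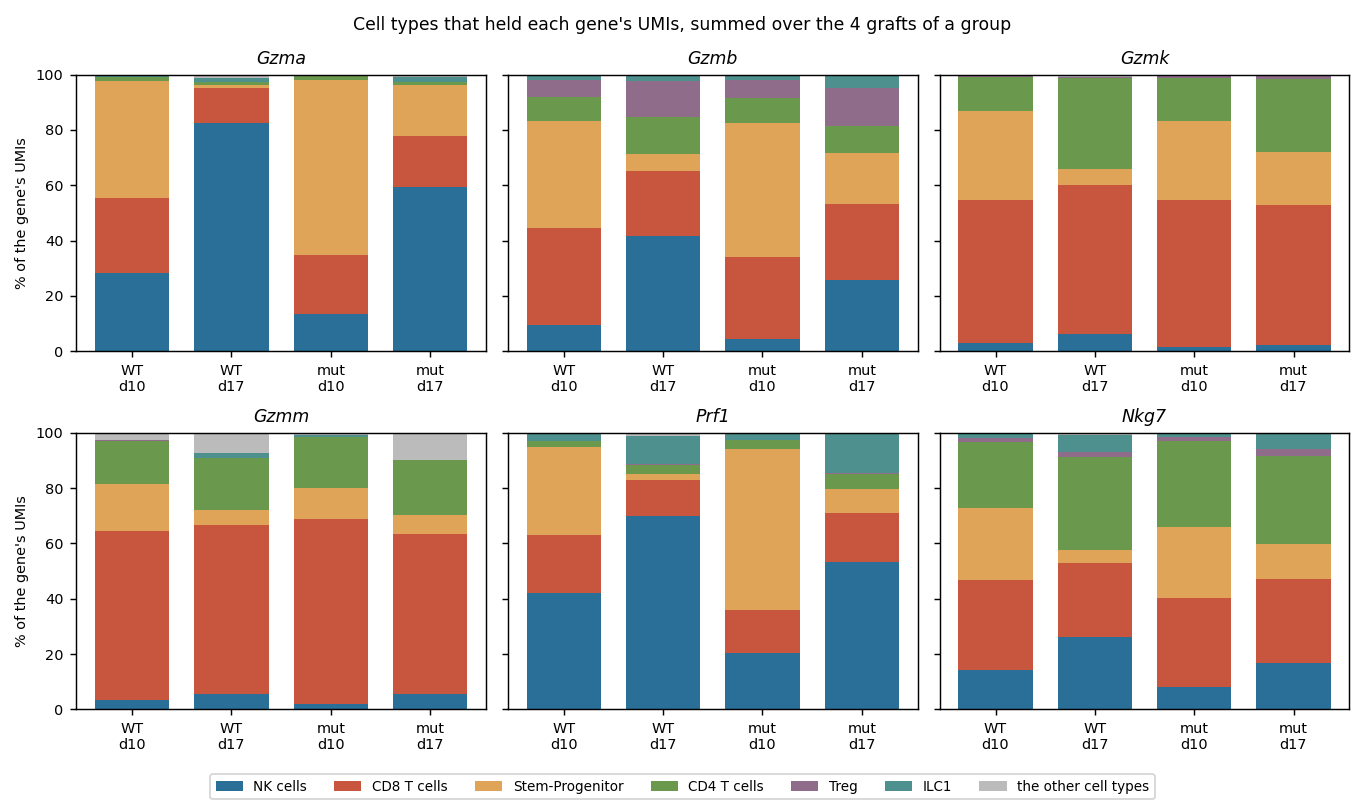
Share of each gene's UMIs held by each cell type, in percent, summed over the 4 grafts of a group. NK cells make up 82.5% of Gzma UMIs in WT and 59.4% in mutant grafts on day 17, while CD8 T cells keep 50.8% to 53.7% of Gzmk UMIs in each group.

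The comparison of Rnls mutant with WT grafts addresses the study's main question, and no member passed it in the main model. Across 5 cell types and all CD45+ cells, 81 tests of a member against genotype were made (day 10, day 17 and the change of the genotype effect between the days). None was called by edgeR's quasi-likelihood test or by DESeq2, and 8 had an unadjusted p of at most 0.05, a mark that 8.27% of all gene tests in these contrasts reached. On day 10 the log2 differences ran from −0.15 to 0.24 in CD8 T cells, from 0.04 to 0.22 in NK cells, from −0.04 to 0.30 in CD4 T cells, from 0.15 to 0.41 in regulatory T cells, from −0.13 to 0.56 in all CD45+ cells and from −0.22 to 0.92 in ILC1. With 2 grafts a side, the mutant ILC1 of day 10 lay above the WT ones for Gzma (654.3 to 875.9 against 355.1 to 483.8) and Gzmb (2044.8 to 2248.0 against 1547.2 to 1687.4). Neither passed edgeR's quasi-likelihood test, which called 0 of 1770 genes in that contrast. An exact permutation of 2 against 2 grafts cannot go below 0.333. Grafts left out for too few cells did not keep that order. WT grafts 3 and 4 (5 and 8 cells) had Gzma at 1247.6 and 1882.6 and Gzmb at 1952.8 and 1172.2. Mutant grafts 2 and 4 (1 and 8 cells) had Gzma at 289.9 and 91.2 and Gzmb at 0 and 1368.2. Calls among all genes were also rare on day 10, at 0.314% of genes in CD8 T cells, 0.0306% in NK cells, 0.229% in CD4 T cells, 0.172% in regulatory T cells, 0.0796% in all CD45+ cells and 0% in ILC1. On day 17 they were 0.184% in NK cells, 0.0565% in ILC1, 0.0429% in regulatory T cells and 0.0159% in all CD45+ cells.

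On day 17 the lowest unadjusted p was that of Gzmb in CD8 T cells, at 0.0057 (log2 −0.93 ± 0.31 mutant minus WT, adjusted p = 0.308, edgeR's quasi-likelihood test), where 0.376% of genes were called in either direction and 8.53% had an unadjusted p of at most 0.05. WT grafts held 455.4, 405.2, 2168.9 and 1508.1 and mutant grafts 564.2, 543.8, 457.8 and 542.5, so WT grafts 1 and 2 lay below every mutant graft and WT grafts 3 and 4 above every one. The call turned on single grafts and on the filter. Without WT graft 3 the difference was −0.38 (adjusted p = 0.736), while it passed without WT graft 1 (−1.24) or graft 2 (−1.22) and with no filter on low counts (−0.89). CD4 Gzmb gave −1.16 ± 0.47 (adjusted p = 0.451), and −0.07 (adjusted p = 1) without that graft, against 0.433% of genes called, and passed with no filter (−1.14). Gzmb of regulatory T cells gave −0.35 in the main fit and −1.13 with a minimum of 20 cells per graft, which left fewer grafts. Its sign turned without WT graft 3 (0.65, adjusted p = 0.479). Prf1 of CD8 T cells gave −0.64 ± 0.31 (adjusted p = 0.583), and −0.39 (0.791) without it.

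The change of the genotype effect between the days passed for no member either. Gzmb gave −1.14 ± 0.40 in CD8 T cells (adjusted p = 0.294), −1.21 ± 0.59 in CD4 T cells (0.571) and −0.82 ± 0.32 in all CD45+ cells (0.451) by edgeR's quasi-likelihood test, so the deeper fall of Gzmb in mutant grafts is a difference in size that was not separated from the spread between grafts. With no filter on low counts it passed in CD8 (−1.08) and CD4 T cells (−1.20), and in CD8 T cells also without WT graft 2 of day 17 (−1.42). Called shares of all genes were 0.658%, 0.636% and 0.143% there, and 0.398% in NK cells, 0.0565% in ILC1 and 1.12% in regulatory T cells. The remaining values at an unadjusted p of at most 0.05 were Gzmk of CD8 T cells (−0.67 ± 0.33, adjusted p = 0.493) and Gzmb of all CD45+ cells on day 10 (0.56 ± 0.22, adjusted p = 0.604).

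In the cells annotated Stem-Progenitor, where no fit was made, Gzma was 11890.3, 10376.6, 8052.1 and 8001.6 CPM in mutant and 10039.3, 3445.5, 1658.8 and 2438.4 in WT grafts on day 10. WT graft 1 fell inside the mutant range and the other 3 lay below it. Cluster 24, with the NK genes, had 113 cells in mutant and 59 in WT grafts on that day, and 3 and 2 on day 17.

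Further genes of the granule pathway were followed as lists, with calls by edgeR's quasi-likelihood test and log2 changes from day 10 to day 17 unless a genotype is named as the contrast. These counts stand beside the shares of all genes called in WT and mutant grafts. Those called lower were 6.32% and 4.56% in CD8 T cells, 10.1% and 10.4% in CD4 T cells, 4.87% and 1.2% in NK cells and 17.5% and 22.4% in all CD45+ cells. Those called higher were 5.41% and 5.89%, 10.6% and 12.1%, 4.2% and 1.47% and 20.5% and 24.3% in the same order. Of the 6 other granzymes, nearly all UMIs lay in cluster 24, with 97.8% of 5920 Gzme UMIs, 97.5% of 9033 Gzmd UMIs, 96.6% of 3659 Gzmg UMIs, 93.3% of 2660 Gzmf UMIs, 86.4% of 10890 Gzmc UMIs and the 4 UMIs of Gzmn. These genes are close copies of each other, so reads can be split between them. Within a cell type, Gzmc was the only one that could be fitted, and it was lower on day 17 in ILC1 of mutant grafts (−3.03, adjusted p = 0.0464) and in CD4 T cells of WT grafts (−1.38, adjusted p = 0.0353, edgeR's quasi-likelihood test). In the sum of all CD45+ cells 5 of the 6 could be fitted and all 5 were lower in each genotype, for example Gzmc (−3.54 in WT and −5.46 in mutant grafts) and Gzmf (−3.55 and −6.10), while cluster 24 went from 59 and 113 cells on day 10 to 2 and 3 on day 17.

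The inhibitors of granzymes and related serpins are known to protect the killer cell from its own granules. Of 5 tested in CD8 T cells, 2 were lower on day 17 in WT (Serpinb9 −0.83, Serpinb6b −0.92) and 3 in mutant grafts (Serpinb9 −0.60, Serpinb6b −0.88, Serpina3g −1.63), against 6.32% and 4.56% of all genes, and none was higher. The list's median log2 change was −0.83 and −0.88, beside 0.02 and 0.01 over all genes tested. In CD4 T cells 2 of 5 were lower in each genotype, and in NK cells 0 of 3 passed in either. Serpinb9, the intracellular inhibitor of granzyme B, was at 1524.0 ± 334.5 CPM in NK cells and 617.7 ± 181.9 in CD8 T cells (SD, n = 16 grafts).

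The granule cargo, which packs and processes granzymes, had few calls in CD8 T and NK cells. Srgn, the proteoglycan that packs them, was at 1811.7 ± 334.9 CPM in NK cells and 1987.8 ± 344.9 in CD8 T cells (SD, n = 16 grafts). Of 12 such genes tested in CD8 T cells, Calr was lower in WT (−0.76) and Ctsb higher in mutant grafts (1.58). In NK cells, Ctsd (0.71) and Ctsw (0.55) were higher in WT and Ctsb (1.24) in mutant grafts, of 11 tested. Ctsb, a lysosomal protease that macrophages hold in large amounts, was also the gene of these lists that differed by genotype, in CD4 T cells on day 17 (0.69, adjusted p = 0.0285) and in the change of the genotype effect in CD8 (1.28, adjusted p = 0.015) and CD4 T cells (1.00), with Ctsh (3.16) in the last. The macrophage genes given above were also highest in mutant grafts of day 17, from 244.5 to 286.2 CPM in CD4 T cells against 49.5 to 91.0 in WT grafts, and their part in the Ctsb and Ctsh values was not tested. Of 14 cargo genes tested in CD4 T cells, 0 were higher and 1 lower in WT, and 4 and 2 in mutant grafts. In the sum of all CD45+ cells, calls in WT grafts included Cd63 (1.34) and Lamp2 (0.82) higher and Cst7 (−0.93) and Calr (−0.45) lower. Those in mutant grafts included Cd63 (1.63) and Ctsb (2.11) higher and Cst7 (−1.44) and Srgn (−0.87) lower.

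The exocytosis machinery, which moves and fuses granules, passed in few places within a cell type. In CD8 T cells 1 of 16 genes tested was higher in WT (Vamp2 1.23) and 0 in mutant grafts, and in NK cells 0 of 9 passed in either. Lyst was higher in ILC1 of mutant grafts (1.97, 1 of 6), where 155 of all 1770 genes were called in either direction. Of 17 genes in CD4 T cells, 2 were higher in WT, and 1 higher and 1 lower in mutant grafts. In the sum of all CD45+ cells, calls in WT grafts included Lyst (0.55), Ap3b1 (0.35) and Vamp2 (0.69) higher and Rab27a (−0.87) lower. Those in mutant grafts included Ap3d1 (0.86) higher and Stx11 (−0.96), Unc13d (−0.60) and Coro1a (−0.76) lower. Among 13 transcription factors of cytotoxic cells, CD8 T cells had Irf4 higher (1.68 and 1.46) and Stat5a lower (−1.29 and −1.20) in both genotypes, with Stat4 higher (0.62) and Runx3 lower (−0.73) in mutant grafts. NK cells of WT grafts had Stat5a (−1.40) and Eomes (−0.67) lower, of 11 tested, and none passed in mutant grafts. The CD4 T cells had 3 higher and 2 lower in WT, and 4 and 2 in mutant grafts. ILC1 of mutant grafts had Stat4 higher (2.12) and Runx3 lower (−2.09).

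Among 9 other effectors of killer cells, chemokines, cytokines and death ligands, 2 chemokines passed in CD8 T and NK cells. Ccl4 was higher on day 17 in CD8 T cells (2.07 and 1.42) and NK cells (1.47 and 1.62) of both genotypes, and Ccl3 in CD8 T cells (2.19) and NK cells (1.20) of WT grafts. These were 2 of 7 genes tested in CD8 T cells and 2 of 6 in NK cells in WT grafts, and 1 of 7 and 1 of 6 in mutant grafts, with none lower. In CD4 T cells Tnf (0.66) and Fasl (0.56) were higher and Xcl1 (−4.57) lower in WT grafts, and Ifng was lower in mutant grafts (−1.85), of 9 tested. In the sum of all CD45+ cells Ccl5 (−0.84 and −0.98) and Lta (−0.85 and −2.37) were lower in both genotypes and Ifng (−2.24) in mutant grafts, and Tnf was higher in WT grafts (0.60).

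Genes whose levels ran most like those of a member were ranked by Pearson's r over 37 points, each a cell type in a group with at least 50 cells, as a description. Points of 1 library share its depth. Gzma ran most like Sult2b1 (r = 0.902), Samd3 (0.890) and Eomes (0.877), and Prf1 most like Sult2b1 (0.960), Klre1 (0.931) and Samd3 (0.930). Gzmb ran most like Gimap7 (0.954), Il2rb (0.945) and Sh2d2a (0.945), and Nkg7 most like Sh2d2a (0.990), Gm2682 (0.987) and Lck (0.986). Gzmk ran most like Sidt1 (0.937), Gm29243 (0.927) and Sh2d1a (0.918), and Gzmm most like Wdr95 (0.868), Gm29243 (0.855) and Bicdl1 (0.844). Between members, r was highest for Gzmb with Nkg7 (0.953) and for Gzma with Prf1 (0.924), and lowest for Gzmb with Gzmm (0.652).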

How the data were processed

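Leukocytes from 16 grafts (4 libraries, 4 hashtagged grafts each) were profiled by 10x Genomics 3′ single-cell RNA-seq. The authors deposited UMI counts per gene and cell with a table that assigns each cell to a graft, a cell type and 1 of 29 clusters. The submitters' processing notes name Cell Ranger (version not given in the sources used here) and the mm10 build. Cells had been filtered by the authors before deposit. Counts were summed per graft and annotated type, and sums with fewer than 10 cells were left out. Levels are CPM (UMIs per 1000000 UMIs). Sums were tested with edgeR's quasi-likelihood test (edgeR 4.0.16, limma 3.58.1, R 4.3.3) after TMM scaling and filterByExpr, in 1 model over the 4 groups, with Benjamini-Hochberg adjustment over all genes and a threshold of 0.05. DESeq2 1.42.0 was an alternative. Genes too low for the fit were given an exact permutation test over grafts. Shares of cells with a UMI were computed after thinning each cell to 1000 UMIs, with exact binomial intervals (95%) that cover counting error only. Python 3.11.15, NumPy 2.4.6, pandas 2.3.3, SciPy 1.17.1 and scanpy 1.11.5 were used. The doublet caller Scrublet marked 1 cell (0.00446%), too few to use, and the sources used here do not say whether doublets had been removed before. The 1345 cells with the highest scores (6%) were left out as an alternative. The fits were tested on simulated data with known changes. The 6 genes and the pathway lists were chosen with earlier results of these data known. Genes outside the 6 are named as the 3 with the highest Pearson r for each member (log2 of CPM plus 1), as at most 4 called genes of each pathway list, as abundant list genes in NK and CD8 T cells, or as fixed cell type markers. Other settings tried were DESeq2, no low-count filter, minima of 1 and 20 cells per graft, removal of likely doublets, single clusters, leaving out each graft, and a block on the hashtag number.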

Additional observations from a re-analysis of the deposited data

Results flagged for a closer look

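In 11 of the 83 groups of 4 grafts examined for the 6 genes, 1 graft stood apart from the other 3 by Dixon's test at 95%, where chance flags about 1 in 20 groups. The values, in CPM, follow by cell type.

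In NK cells, Rnls mutant graft 4 of day 17 had Gzma at 13528.0 (the others between 4519.0 and 5370.2) and Nkg7 at 2729.5 (others up to 1534.3). WT graft 3 of day 17 had the lowest Nkg7 of its group, 1382.7 (others up to 1679.2). Mutant graft 3 of day 10 had Gzmk at 89.1 (others up to 38.7). Gzmm was at 12.5 in WT graft 3 of day 10 (6 UMIs, others up to 4.13) and at 10.4 in WT graft 2 of day 17 (3 UMIs, others at 0).

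In CD4 T cells, Gzmk was at 48.9 in mutant graft 3 of day 10 (others up to 86.2) and Nkg7 at 582.4 in mutant graft 1 of day 10 (others up to 770.0). In CD8 T cells, Gzmm was at 14.2 in mutant graft 2 of day 17 (others up to 59.2). In regulatory T cells, Gzmk was at 100.9 in mutant graft 4 of day 10 (others up to 30.1) and Gzmm at 7.26 in WT graft 4 of day 10 (1 UMI, others at 0).

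The change from day 10 to day 17 differed between a T-cell type and NK cells of the same grafts for 8 log2 ratios by exact permutation. For CD8 T cells these were Gzma (−1.85), Gzmb (−1.68), Prf1 (−0.46, at the threshold) and Nkg7 (−0.43). For CD4 T cells they were Gzma (−2.39), Gzmb (−2.04) and Nkg7 (−0.96), and for regulatory T cells Gzmb (−1.89).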

How the results depend on the processing

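The number of members called was within 1.5 times the main number in 555 of 600 settings, and 2679 of 2749 log2 changes kept their side of the threshold. That count does not follow the sign of changes that were not called. Some of these turned, such as NK Gzmb in WT grafts without graft 3 of day 17 (0.89 to −0.27). With no filter on low counts, the number called went from 0 to 2 for the WT day change in NK cells, from 2 to 4 for the mutant day change in CD8 T cells, from 1 to 2 for the WT day change in regulatory T cells, and from 0 to 1 for the day 17 genotype effect and for its change between the days in both CD8 and CD4 T cells. DESeq2 called 1 in place of 2 for the WT day change in CD8 T cells and 0 in place of 2 in CD4 T cells. Leaving out the cells of highest doublet score gave 1 in place of 2 for the WT day change in CD4 T cells and 2 in place of 1 for the mutant day change in ILC1, which became 0 with a minimum of 1 cell. With a minimum of 20 cells, regulatory T cells had 0 in place of 1 for the WT day change and 1 in place of 0 for the day 17 genotype effect and its change between the days. Without clusters 16 and 20 the WT day change in CD8 T cells had 1 in place of 2. CD4 cluster 8 alone had 0 in place of 2 for the WT day change, and cluster 7 alone 4 in place of 2 for the mutant one, where Gzmk turned from 0.03 to −2.53. The cause was not tested in any of these.

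With each graft left out in turn, the number called ranged from 0 to 1 for the WT day change in NK cells, from 0 to 2 for both day changes in ILC1, from 1 to 2 for the WT day change in CD8 T cells, from 1 to 4 in CD4 T cells and from 2 to 6 in all CD45+ cells, and from 0 to 1 for the CD8 genotype effect of day 17 and its change between the days. Whether grafts with the same hashtag number came from 1 mouse is not given. Their deviations from the group means correlated at r between −0.20 and 0.38, not above 0.1 in every pair, with hashtag 1 of day 10 positive in all 6 populations, so the pairing is unsettled. A replicate block on the numbers left 0 members called in each genotype contrast. Day changes could not be fitted with that block. Over all genes, DESeq2 and edgeR differed by more than 1.5 times in these genotype contrasts: NK cells on day 10 (3 and 1), on day 17 (14 and 6) and between the days (21 and 13), CD8 T cells on day 10 (50 and 20) and day 17 (41 and 24), CD4 T cells on day 10 (61 and 18), regulatory T cells on day 10 (2 and 4) and all CD45+ cells on day 10 (88 and 10), day 17 (31 and 2) and between the days (93 and 18). The mutant day change in regulatory T cells gave 84 and 169. Of 188 ratio settings 12 lost and 2 gained a call, of 72 shares of cells 48 moved without thinning, and 9 of 12 settings named other genes as most like a member. Few cells per graft on day 17 and the low counts of Gzmm and Gzmk limit these comparisons.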
